A study of Mus musculus with 12 samples.

Results

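The segments of the T cell receptor (TCR) alpha and beta chains were examined in sorted thymic iNKT cells with and without forced expression of miR-155. The members were all gene names that begin with Trav, Traj, Trac, Trbv, Trbd, Trbj or Trbc and that held at least 10 raw counts summed over the 12 libraries, leaving out names that end in -ps, of which the table had none. Of 242 such names among 48709 names in the table, 184 were members, namely 111 of 128 Vα segments (Trav), 35 of 60 Jα segments (Traj), the Cα segment Trac, 23 of 35 Vβ segments (Trbv), neither of the 2 Dβ segments (Trbd), 12 of 14 Jβ segments (Trbj) and both Cβ segments (Trbc1 and Trbc2). The members nearest to the minimum were Trav6n-5 and Trav20 with 13 counts each and Trav18 with 14, and the names just under it were Traj50 with 7 counts and Traj58 and Traj49 with 9 each.

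A TCR chain is made when a developing thymocyte joins 1 V segment to 1 J segment, with a D segment between them in the beta chain, and splices the joined exon to a constant segment. Most αβ T cells each join different segments, while iNKT cells share an invariant alpha chain, which joins the Vα14 segment Trav11 to the Jα18 segment Traj18 and binds lipids presented by CD1d. That chain pairs with beta chains from a few Vβ families, in the mouse mainly Vβ8 (Trbv13-1, Trbv13-2 and Trbv13-3), Vβ7 (Trbv29) and Vβ2 (Trbv1). Vα genes of the mouse strain used here also lie in duplicated blocks, so that many of them have near-identical copies whose names carry a d or an n.

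RNA was sequenced from NK1.1- and NK1.1+ iNKT cells of WT and miR-155KI mice, 3 libraries in each of the 4 groups, all from the thymus of C57BL/6J mice aged 7 weeks. miR-155KI mice carried a miR-155 cassette at Rosa26 in 2 copies and a transgene with Cre under the Cd4 promoter, which acts in all cells that pass the CD4+ CD8+ (double-positive) stage, and WT mice were littermates without Cre that kept the cassette allele. CD8+ thymocytes were depleted with beads, and the remaining cells were sorted on TCRβ, the CD1d tetramer, CD44 and NK1.1, so that a TCR that binds the tetramer was itself part of the gate. The study's methods state that replicates were pooled while the labels give 3 libraries per group, and the mice behind each library are not named, so that p-values measure the spread between libraries, which may be technical.

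The libraries held 12819476 to 20518257 counts. The iNKT transcription factor gene Zbtb16 lay between 216 and 639 CPM in all libraries, and Klrb1c, which encodes NK1.1, lay between 36.7 and 79.9 CPM in NK1.1- libraries and between 358 and 774 CPM in NK1.1+ libraries. Levels are in CPM (counts-per-million), computed after TMM scaling of the library sizes. One library stood apart. In miR-155KI NK1.1+ library 1 the 9 markers of double-positive thymocytes, all 9 with counts, summed to 289 CPM against 20.5 to 72.0 CPM in the other 11 libraries, and the 3 myeloid markers summed to 168 CPM (143 and 44.8 CPM in libraries 2 and 3 of that group, at most 42.3 CPM elsewhere). The main results that rest on miR-155KI NK1.1+ cells are therefore also given without it. Of 3 listed markers of gamma delta T cells, Trdc and Sox13 were found by their listed names, and these 2 differed. The third, Trgc1, was not found by that name, and the gamma constant segment Tcrg-C1 lay between 112 and 228 CPM in all libraries. Sox13 stood at 90.3, 94.2 and 30.7 CPM in miR-155KI NK1.1- libraries and at 10.2 to 25.0 CPM in the other 9 libraries. Trdc stood at 16.6 CPM in miR-155KI NK1.1+ library 1 and at 0.410 to 1.95 CPM in the other 11 libraries. The genotypes also differed in sex-linked RNA. Ddx3y, a Y-linked gene, stood at 52.5 and 62.5 CPM in the libraries of WT replicate 1 and at 55.5 to 76.6 CPM in the 6 miR-155KI libraries, against 3.29 to 6.92 CPM in those of WT replicates 2 and 3, and Xist, the RNA of the silenced X chromosome, ran the other way (8.19 to 35.0 against 135 to 237 CPM). The part of either in the differences between genotypes was not tested, apart from the values against WT replicate 1 alone given below.

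The segments that carry the invariant chain and the main beta chains are shown as they lie in GRCm38 (GENCODE M21), all on the plus strand. For V segments the last 60 bases are printed, with capitals from the conserved cysteine codon to the end, the germline part of CDR3. For Jα segments the whole segment is printed, with capitals up to the phenylalanine codon that ends CDR3. Trav11 (chr14:53519800-53519859) and Traj18 (chr14:54200777-54200842) form the invariant alpha chain, and Traj17 (chr14:54201775-54201837) is the next segment 3′ of Traj18.
Trav11: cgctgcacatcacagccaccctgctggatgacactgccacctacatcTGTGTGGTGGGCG
Traj18: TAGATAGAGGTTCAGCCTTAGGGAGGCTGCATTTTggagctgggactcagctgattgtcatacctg
Traj17: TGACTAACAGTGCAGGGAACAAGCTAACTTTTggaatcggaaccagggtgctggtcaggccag

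The 3 Vβ8 genes and the Vβ7 gene are shown because their balance was the main readout of the beta chain. They lie at chr6:41116409-41116468 (Trbv13-1), chr6:41121773-41121832 (Trbv13-2), chr6:41130526-41130585 (Trbv13-3) and chr6:41271822-41271881 (Trbv29).
Trbv13-1: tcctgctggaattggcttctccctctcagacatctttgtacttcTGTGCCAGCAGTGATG
Trbv13-2: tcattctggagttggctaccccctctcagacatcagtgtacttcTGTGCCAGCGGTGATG
Trbv13-3: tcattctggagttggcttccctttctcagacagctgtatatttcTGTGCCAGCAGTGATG
Trbv29: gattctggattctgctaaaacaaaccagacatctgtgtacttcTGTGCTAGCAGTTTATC
The annotated transcripts of the Trbv13 genes were 85.9% to 90.6% identical to one another, and Trbv13-2 was 67.3% identical to Trbv29, so the Vβ8 genes share more sequence with each other than with Vβ7.

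First, the level of each chain was compared between the NK1.1- and NK1.1+ pools. The invariant alpha chain segments and Trac were higher in NK1.1+ than in NK1.1- iNKT cells of both genotypes, about 2-fold for Trav11 and Traj18 in WT cells, while neither Cβ segment passed the test. In bulk libraries, fewer cells that carry a segment cannot be told apart from less of its RNA per cell.

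Trav11 stood at 255, 228 and 251 CPM in WT NK1.1- libraries 1, 2 and 3 and at 540, 480 and 487 CPM in WT NK1.1+ libraries. In miR-155KI cells it stood at 267, 286 and 265 CPM in NK1.1- and at 363, 581 and 553 CPM in NK1.1+ libraries. Every NK1.1+ library lay above every NK1.1- library, with miR-155KI NK1.1+ library 1 the lowest of them. The log2 fold change was 1.01 in WT cells (standard error, SE, 0.116, adjusted p = 0.000134, edgeR's quasi-likelihood test) and 0.87 in miR-155KI cells (SE 0.168, adjusted p = 0.0079), or 1.05 without library 1 (adjusted p = 0.000226).

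Traj18 also separated the pools. It stood at 34.8, 33.6 and 36.5 CPM in WT NK1.1- libraries and at 70.4, 68.0 and 73.8 CPM in WT NK1.1+ libraries. In miR-155KI cells it stood at 38.9, 42.6 and 42.1 CPM in NK1.1- libraries and at 48.9, 77.4 and 83.1 CPM in NK1.1+ libraries. The pools did not overlap in either genotype, and the log2 fold change was 0.98 in WT cells (SE 0.125, adjusted p = 0.000264) and 0.76 in miR-155KI cells (SE 0.204, adjusted p = 0.0348), or 0.95 without library 1 (adjusted p = 0.00281).

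Trac, the constant segment of every alpha chain whatever its V and J, stood at 876, 765 and 791 CPM in WT NK1.1- libraries and at 1390, 1411 and 1377 CPM in WT NK1.1+ libraries. In miR-155KI cells it stood at 942, 928 and 955 CPM in NK1.1- libraries and at 1075, 1573 and 1646 CPM in NK1.1+ libraries. The pools again did not overlap. Trac rose by a log2 fold change of 0.75 in WT cells (SE 0.113, adjusted p = 0.000749) and 0.60 in miR-155KI cells (SE 0.154, adjusted p = 0.0285), or 0.77 without library 1 (adjusted p = 0.000367). In miR-155KI cells, leaving out any 1 of the other 5 libraries (NK1.1- library 1, 2 or 3, or NK1.1+ library 2 or 3) kept the direction but ended the call for Trac (0.50 to 0.61, adjusted p between 0.0721 and 0.124) and for Traj18 (0.62 to 0.77, adjusted p between 0.0775 and 0.144), and leaving out NK1.1- library 3 ended it for Trav11 (0.84, adjusted p = 0.0545). No such loss occurred for these 3 segments in WT cells.

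The Cβ segments overlapped between the pools. Trbc1 stood at 841, 694 and 933 CPM in WT NK1.1- libraries and at 902, 710 and 707 CPM in WT NK1.1+ libraries, a log2 fold change of -0.12 (adjusted p = 0.617). Trbc2 stood at 1539, 1221 and 1327 CPM in WT NK1.1- libraries and at 1405, 1102 and 1066 CPM in WT NK1.1+ libraries, a log2 fold change of -0.22 (adjusted p = 0.312). In miR-155KI cells Trbc2 gave -0.17 (adjusted p = 0.287), or -0.16 without library 1 (adjusted p = 0.174). Set against the beta chain within a library, Trac took 27.1% ± 1.32 of the Trac, Trbc1 and Trbc2 counts in WT NK1.1- cells and 41.7% ± 3.55 in WT NK1.1+ cells (SD over 3 libraries), and 29.9% ± 1.07 and 40.8% ± 4.99 in the same pools of miR-155KI cells. This share, chosen after its values were seen, is independent of library scaling. The 2 pools did not overlap in either genotype (exact permutation p = 0.1, the smallest that 3 against 3 libraries allow, adjusted p = 0.375 over 60 share tests), with miR-155KI NK1.1+ library 1 the lowest miR-155KI NK1.1+ library at 35.1%. The difference between the miR-155KI pools was 10.9 points, and 13.7 points without that library.

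**Figure D1:**
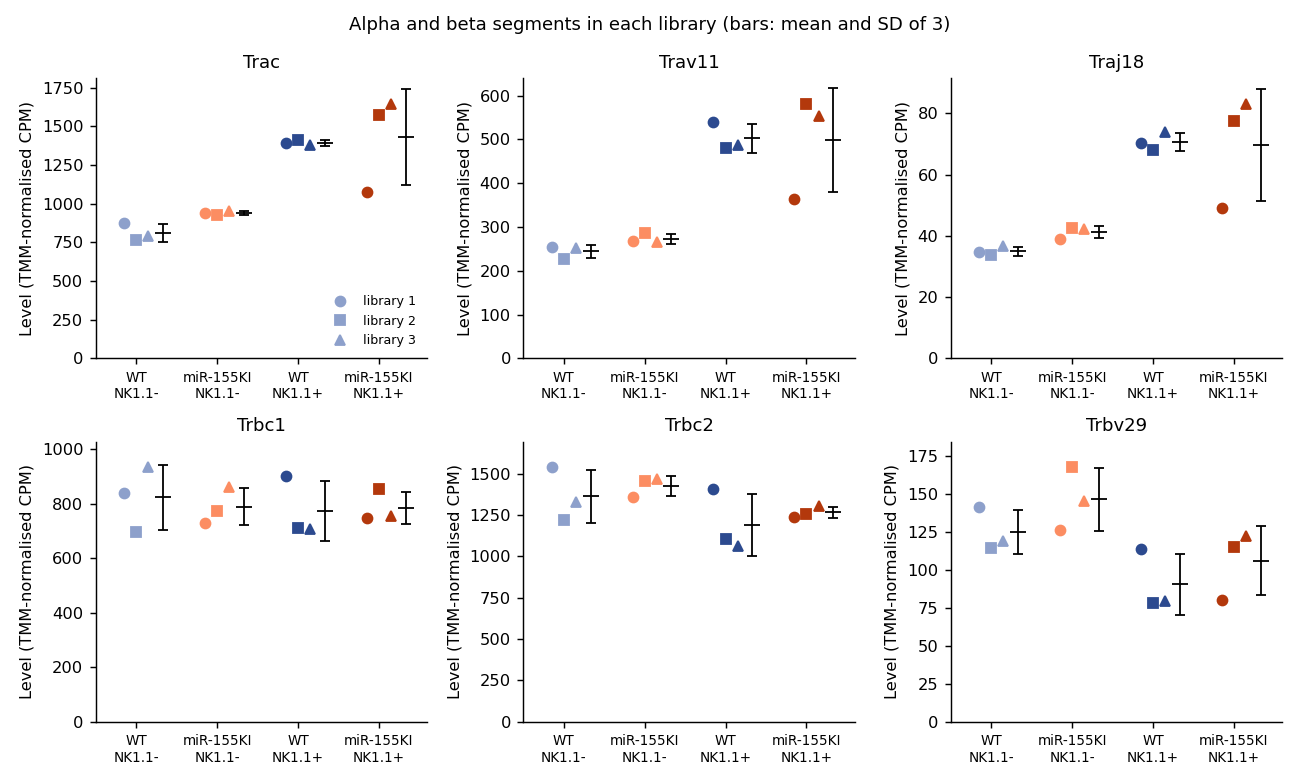
Levels of 6 TCR segments in TMM-normalised CPM (y axis from 0) in the 4 groups; circles, squares and triangles are libraries 1, 2 and 3, and the bar beside them is the mean with its SD (n = 3). Trac, Trav11 and Traj18 lie higher in every NK1.1+ library than in any NK1.1- library, Trbc1 and Trbc2 overlap, and miR-155KI NK1.1+ library 1 lies lowest of the NK1.1+ libraries for the alpha segments.

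Read against all genes, few members were called between pools. In WT cells 122 of the 184 members passed edgeR's filter on low counts, 3 were higher in NK1.1+ cells (9.89% of all 13555 genes tested were) and 1 was lower (10.9% of all genes). The median log2 fold change was 0.10 over the members and 0.008 over all genes. In miR-155KI cells 121 members were tested, 4 were higher (7.92% of 12942 genes) and 1 was lower (6.15%), with medians of 0.25 and 0.03. Without library 1 of the miR-155KI NK1.1+ cells the counts were 4 and 2 of 125 members tested (1299 and 1243 of 13492 genes were).

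The signs of the fitted values were counted by class. In WT cells all 12 Jα segments tested lay above 0 in the comparison of NK1.1+ with NK1.1- cells (median 0.51 on the log2 scale), and 1 of them, Traj18, passed the test. Of the Vα segments 46 of 74 lay above 0, against 6 of 21 Vβ and 2 of 12 Jβ segments. For Vβ this count moved with single libraries, from 4 of 21 without WT NK1.1+ library 1 to 10 of 21 without WT NK1.1- library 1. In miR-155KI cells all 11 Jα segments, 50 of 75 Vα, 15 of 20 Vβ and 3 of 12 Jβ segments lay above 0, and 11 of 12, 45 of 78, 11 of 20 and 4 of 12 without library 1 of the NK1.1+ cells. Without NK1.1- library 3 they were 11 of 15 Jα, 55 of 84 Vα, 16 of 20 Vβ and 7 of 12 Jβ segments. These members share libraries and, for many Vα genes, sequence, so the counts are a description.

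Next, the fraction of alpha chain RNA that came from the invariant segments was calculated in each library. Trav11 took 65.5%, 66.7% and 67.7% of all Trav counts in WT NK1.1- libraries and 78.7%, 76.8% and 77.5% in WT NK1.1+ libraries. The WT pools did not overlap and differed by 11.0 percentage points (exact permutation p = 0.1, adjusted p = 0.375). In miR-155KI cells the share was 65.0%, 67.4% and 65.8% in NK1.1- libraries and 66.1%, 79.4% and 78.2% in NK1.1+ libraries. The first NK1.1+ library sat among the NK1.1- libraries, and the difference was 8.50 points with it (exact permutation p = 0.2) and 12.7 points without it. The 95% Wilson interval of this share reached 0.696 to 1.25 points to either side within a library, for counting error alone.

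The remaining Vα RNA was also counted. The Vα segments other than Trav11 summed to 134, 113 and 120 CPM in WT NK1.1- libraries and to 146, 145 and 141 CPM in WT NK1.1+ libraries. In miR-155KI cells they summed to 144, 139 and 138 CPM in NK1.1- libraries and to 187, 151 and 154 CPM in NK1.1+ libraries, so that in both genotypes the NK1.1+ libraries lay above the NK1.1- libraries. Per length, Trav11 reached a mean of 1107 CPM per kb of exon over the 12 libraries, and the next Vα segment, Trav6d-6, reached 10.7 CPM per kb.

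Traj18 took 72.2%, 75.8% and 80.3% of all Traj counts in WT NK1.1- libraries and 81.4%, 83.9% and 81.0% in WT NK1.1+ libraries. The WT pools were separated by less than 1 point at their nearest libraries and differed by 6.02 points in the mean (exact permutation p = 0.1, adjusted p = 0.375). In miR-155KI cells the share was 77.1%, 76.4% and 79.2% in NK1.1- and 75.2%, 79.7% and 82.4% in NK1.1+ libraries, which overlapped (exact permutation p = 0.6), and the difference was 1.54 points with library 1 and 3.48 points without it.

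Jα segments are numbered from 3′ to 5′ along the locus. Of the members, 22 lie on the 5′ side of Traj18 (numbers above 18, up to 45) and 12 on its 3′ side, and the 16 names above 45 held 46 counts together. The segments 3′ of Traj18 took 8.84% ± 0.974 of the Traj counts in WT NK1.1- cells and 6.40% ± 0.647 in WT NK1.1+ cells (SD over 3 libraries), with no overlap (exact permutation p = 0.1, adjusted p = 0.375). The miR-155KI pools overlapped, with 6.96% ± 0.893 for the NK1.1- and 7.74% ± 1.24 for the NK1.1+ libraries (exact permutation p = 0.5). Apart from Traj18, the most counted Jα segment was Traj17, which starts 933 bp downstream of the end of Traj18, with 312 counts over the 12 libraries. In each library Traj17 held 1.14% to 3.81% of the Traj18 count. Its neighbour on the other side, Traj19, ends 331 bp upstream of Traj18 and held 20 counts. Traj27 came next with 231 counts. Traj17, Traj27, Traj23, Traj31 and Traj22, the 5 highest after Traj18, lay between 0.45 and 2.81 CPM in every library, and none passed edgeR's test in any of the 5 comparisons. The Jα segments other than Traj18 together summed to 13.4, 10.8 and 9.0 CPM in WT NK1.1- and to 16.1, 13.1 and 17.3 CPM in WT NK1.1+ libraries, which overlapped. In miR-155KI cells they summed to 11.5, 13.2 and 11.1 CPM in NK1.1- and to 16.1, 19.7 and 17.7 CPM in NK1.1+ libraries, without overlap.

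**Figure D2:**
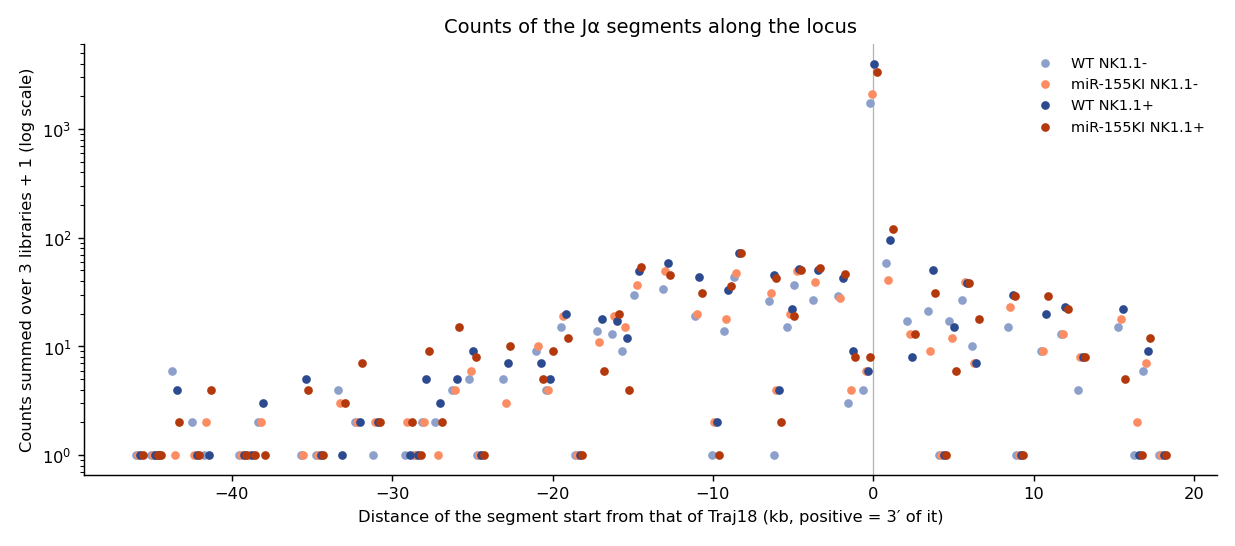
Counts of each Jα segment (summed over 3 libraries, plus 1, log scale) against the distance of its start from that of Traj18 in kb, positive being 3′ of it; each point is 1 segment in 1 group. Traj18 stands far above all others in every group, and counts fall away on the 5′ side, where the 16 segments numbered above 45 hold 46 counts in all.

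The Vβ repertoire was then compared as shares of all Trbv counts. In WT cells the Vβ8 family took a larger share in NK1.1+ cells and Vβ7 a smaller one, with no overlap between libraries, and the Vβ2 segment Trbv1 took the same mean share in both pools. The Trbv13 family took 50.2%, 51.7% and 51.3% in WT NK1.1- libraries and 57.6%, 58.7% and 57.4% in WT NK1.1+ libraries, a difference of 6.84 points (exact permutation p = 0.1, adjusted p = 0.375). In miR-155KI cells it took 51.3%, 49.5% and 51.9% in NK1.1- libraries and 49.3%, 57.6% and 56.4% in NK1.1+ libraries. The first NK1.1+ library was again apart, and the difference was 3.51 points with it (exact permutation p = 0.4) and 6.08 points without it.

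Trbv29 took 19.5%, 18.2% and 17.7% of the Trbv counts in WT NK1.1- libraries and 13.2%, 11.9% and 13.0% in WT NK1.1+ libraries, a difference of -5.77 points. In miR-155KI cells it took 19.8%, 23.6% and 19.9% in NK1.1- libraries and 11.1%, 14.6% and 16.2% in NK1.1+ libraries, a difference of -7.18 points, or -5.75 points without library 1. Neither genotype had an overlap between pools (exact permutation p = 0.1 and adjusted p = 0.375 in each). As a level, Trbv29 stood at 141, 114 and 119 CPM in WT NK1.1- libraries and at 114, 78.3 and 79.6 CPM in WT NK1.1+ libraries. Its log2 fold change was -0.49 in WT cells (SE 0.165, adjusted p = 0.0557), and -0.51 with the replicate number as a block (adjusted p = 0.00342). Without NK1.1+ library 1 it was -0.70 (adjusted p = 0.00293). In miR-155KI cells the log2 fold change was -0.47 (adjusted p = 0.116), and -0.31 without library 1 (adjusted p = 0.169). With the block Trbv29 passed the threshold in miR-155KI cells too, as given in the closing section.

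Trbv13-2 was the most abundant Vβ segment per length, with a mean of 763 CPM per kb over the 12 libraries, followed by Trbv29 (332), Trbv13-1 (239), Trbv1 (191), Trbv12-2 (177) and Trbv13-3 (99.2). Trbv13-2 stood at 237, 211 and 220 CPM in WT NK1.1- libraries and at 337, 264 and 243 CPM in WT NK1.1+ libraries. The NK1.1+ libraries were all higher, but the log2 fold change of 0.31 did not pass (adjusted p = 0.152).

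Trbv12-2 is not among the Vβ segments known for iNKT cells, and it ranked above Trbv13-3 per length. It lies between Trbv13-1 and Trbv13-2, 2383 bp from the former and 2032 bp from the latter. Its counts were 0.230 to 0.297 of those of Trbv13-2 in every library, and its level, 55.9 to 89.9 CPM, passed the test in no comparison. Whether its reads came from its own rearrangements or from transcripts of its neighbour was not tested.

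**Figure D3:**
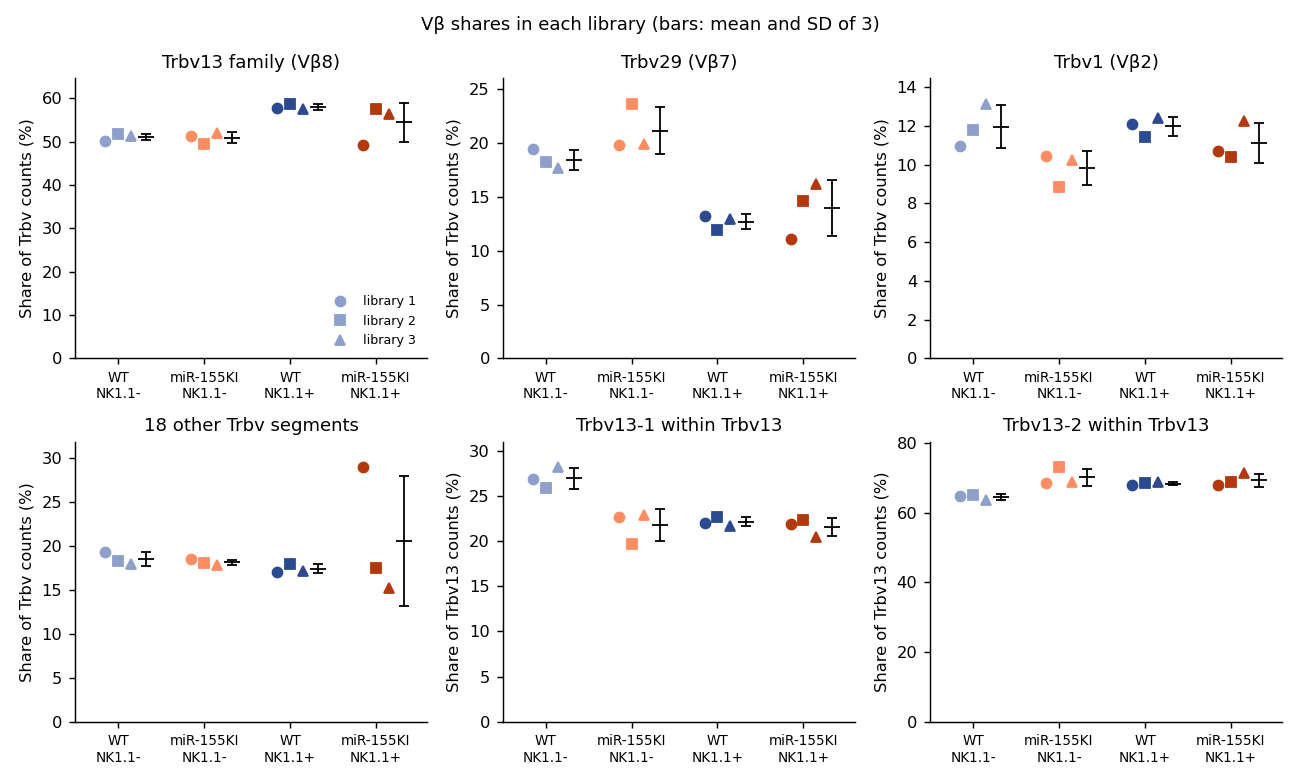
Share of Trbv counts (upper 3 panels and lower left) or of Trbv13 counts (lower middle and right), in percent from 0, per library; symbols are libraries 1, 2 and 3 and bars the mean with SD (n = 3). Trbv29 lies lower in all NK1.1+ than in all NK1.1- libraries, Trbv13-1 takes a larger part of Trbv13 in WT NK1.1- libraries than in any other, and the 18 other segments reach 28.9% in miR-155KI NK1.1+ library 1.

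Of the lower Vβ segments, Trbv31 was called. It stood at 13.3, 11.1 and 11.1 CPM in WT NK1.1- libraries and at 8.42, 7.01 and 4.51 CPM in WT NK1.1+ libraries, without overlap, a log2 fold change of -0.86 (SE 0.273, adjusted p = 0.0452). The call was lost without WT NK1.1- library 1, 2 or 3 or NK1.1+ library 2 or 3 (-0.91 to -0.64, adjusted p between 0.0915 and 0.179). In miR-155KI cells it stood at 9.07, 10.5 and 9.21 CPM in NK1.1- libraries and at 11.5, 4.21 and 2.08 CPM in NK1.1+ libraries. The first NK1.1+ library lay above and the other 2 below all NK1.1- libraries, and the log2 fold change was -0.69 (adjusted p = 0.495), or -1.60 without that library (adjusted p = 0.0458). The Vα segment Trav14d-3-dv8, which can also serve a delta chain, stood at 4.75, 3.55 and 2.73 CPM in WT NK1.1- libraries and at 2.22, 1.05 and 1.40 CPM in WT NK1.1+ libraries. The groups did not overlap, and the log2 fold change of -1.26 (SE 0.422) missed the threshold (adjusted p = 0.0563) and passed it with the replicate block (-1.29, adjusted p = 0.0256) and without NK1.1+ library 1 (-1.61, adjusted p = 0.0170). In miR-155KI cells Trav14d-3-dv8 gave -1.07 (adjusted p = 0.200), or -1.39 without library 1 (adjusted p = 0.0814). Summed with its copies, the gene gave -0.77 in WT cells (adjusted p = 0.115). With the block, 3 members were higher and 3 lower in WT NK1.1+ cells (1999 and 2054 of all 13555 genes were).

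The genotypes were compared within each pool. In NK1.1- cells no segment of the invariant chain, no Vβ segment and no constant segment passed the test. Of 116 members tested, 1 was higher in miR-155KI cells (1.93% of 13304 genes were) and 1 was lower (1.5% of genes), and 9 had an unadjusted p under 0.05 (2457 of the 13304 genes did). The 2 called were Trav7-2 and Trav7d-2, copies identical over the 336 bases aligned, described below. WT replicate 1 has the sex-linked RNA pattern of the miR-155KI libraries. Against it alone, the median log2 fold change was -0.005 over 138 members and 0.02 over all genes. Of 14 genes listed for the gamma delta TCR, 8 were tested against all 3 WT libraries, with 2 higher and 0 lower (1.93% and 1.5% of all genes were). Tcrg-C4 stood at 318, 382 and 305 CPM in miR-155KI NK1.1- libraries and at 202, 166 and 129 CPM in WT, a log2 fold change of 1.00 (adjusted p = 0.00496). Trgv2 was higher by 0.62 (adjusted p = 0.0313). Tcrg-C1, Tcrg-C2, Tcrg-V4 and Tcrg-V6 did not pass (0.32 to 0.65, adjusted p between 0.0916 and 0.679), nor did Sox13 (1.93, adjusted p = 0.164). Trdc, the delta constant segment, stood between 0.558 and 1.95 CPM in both NK1.1- groups. In NK1.1+ cells 0 of 8 were called by genotype (0.0231% and 0% of all genes were). Against all 3 WT libraries, the median log2 fold change was 0.10 over the members and -0.001 over all genes. Trac was higher in every miR-155KI than in every WT NK1.1- library (942, 928 and 955 against 876, 765 and 791 CPM), but its log2 fold change of 0.20 (SE 0.0938) did not pass (adjusted p = 0.282). Trav11 gave 0.14 (adjusted p = 0.488) and Traj18 0.22 (adjusted p = 0.411), each with its 3 miR-155KI libraries above its 3 WT libraries. Trav11 took 66.7% ± 1.097 of the Trav counts in WT and 66.1% ± 1.22 in miR-155KI NK1.1- cells (SD, n = 3 each), which overlapped.

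Within Vβ8, the split between genes did not overlap between the genotypes in NK1.1- cells. Trbv13-1 took 26.8%, 25.8% and 28.2% of the Trbv13 counts in WT NK1.1- libraries and 22.7%, 19.7% and 22.8% in miR-155KI NK1.1- libraries, a difference of -5.21 points. Trbv13-2 took 64.9%, 65.1% and 63.6% in the WT libraries and 68.6%, 73.1% and 68.8% in the miR-155KI libraries, a difference of 5.63 points. WT NK1.1- cells also stood apart from WT NK1.1+ cells, in which Trbv13-1 took 22.0%, 22.7% and 21.7% and Trbv13-2 took 67.9%, 68.5% and 68.7% of the family. All these pairs of groups were without overlap (exact permutation p = 0.1, adjusted p = 0.375 each). In NK1.1+ cells Trbv13-1 took 22.1% ± 0.498 in WT and 21.5% ± 1.01 in miR-155KI cells, which overlapped. As a level, Trbv13-1 stood at 97.8, 83.9 and 97.3 CPM in WT and at 74.1, 69.1 and 86.6 CPM in miR-155KI NK1.1- libraries, with a log2 fold change of -0.30 (SE 0.119) that did not pass (adjusted p = 0.202).

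Trbv29 and Trbv1 also separated the genotypes in NK1.1- cells by share. Trbv29 took 18.5% ± 0.915 of the Trbv counts in WT and 21.1% ± 2.17 in miR-155KI cells, and Trbv1 took 12.0% ± 1.101 and 9.85% ± 0.874 (SD, n = 3 each). The libraries did not overlap in either case (exact permutation p = 0.1, adjusted p = 0.375). As levels, neither passed: the log2 fold change was 0.21 for Trbv29 (adjusted p = 0.405) and -0.26 for Trbv1 (adjusted p = 0.251). Of the 60 share tests, 16 gave the smallest p that 3 against 3 libraries allow, and none could reach 0.05.

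In NK1.1+ cells no member passed the test for genotype. Of 128 members tested, 0 were higher (0.0231% of 12991 genes, which is 3 genes, were) and 0 lower (0% of genes) by edgeR. At an unadjusted p under 0.05 were 0 members and 1539 of the 12991 genes. DESeq2 called 0 higher and 1 lower (166 and 150 of 14133 genes were), with 10 under an unadjusted p of 0.05 (2179 of all genes were). Without library 1 of the miR-155KI cells edgeR again called 0 of 133 (2 higher and 0 lower of 13629 genes were), with 3 under 0.05 (2048 of all genes were). Trav11 took 77.7% ± 0.955 of the Trav counts in WT and 74.6% ± 7.37 in miR-155KI NK1.1+ cells, a difference of -3.12 points that became 1.12 points without library 1. Trbv29 took 12.7% ± 0.701 and 14.0% ± 2.59 of the Trbv counts, a difference of 1.27 points (exact permutation p = 0.5) and of 2.70 points without library 1. The difference of the genotype effect between pools was called for 0 of 143 members by edgeR (0.0278% of 14401 genes, 4 genes, were called), with 7 at an unadjusted p under 0.05 (1167 of all genes were). DESeq2 also called 0 members (81 higher and 58 lower of 15510 genes were), with 11 under 0.05 (1559 of all genes were).

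Summed over all members, TCR segments took 4234 ± 346 CPM, here without TMM scaling, in WT NK1.1-, 4567 ± 89.7 in miR-155KI NK1.1-, 4670 ± 386 in WT NK1.1+ and 4962 ± 218 in miR-155KI NK1.1+ cells (SD, n = 3 each). Of the 4 comparisons, only that of the 2 miR-155KI pools was without overlap (exact permutation p = 0.1, adjusted p = 0.375), with a difference of 395 CPM, or 515 CPM without library 1.

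The library that stood apart did so across the minor Vβ segments. The 18 Trbv segments outside Vβ8, Vβ7 and Vβ2 took 28.9% of the Trbv counts in miR-155KI NK1.1+ library 1, and 17.5% and 15.1% in libraries 2 and 3 of that group. The other 9 libraries lay between 17.0% and 19.3%. That library held the highest share of all 12 for 11 of the 18 segments, and the next, WT NK1.1- library 1, for 3. Trbv16 took 2.60% of its Trbv counts against at most 0.848% in any other library. Trbv19 took 2.15%, Trbv3 2.01% and Trbv2 1.55%. In the same library genes of double-positive thymocytes were at 107 CPM (Dntt, which adds bases at V(D)J joints), 24.7 CPM (Cd8a), 8.95 CPM (Ptcra, the pre-TCR alpha chain), 3.25 CPM (Rag1) and 5.37 CPM (Rag2). Elsewhere these genes reached at most 6.43, 16.8, 1.15, 2.27 and 0.505 CPM. Arpp21 (43.6 against at most 3.98 CPM) and Cd24a (56.9 against at most 8.59 CPM) were also highest there. Cd8b1 (18.1 CPM) and Rmnd5a (20.4 CPM) were not, with 18.9 CPM in WT NK1.1- library 1 and 27.6 CPM in miR-155KI NK1.1+ library 2. The part of double-positive thymocytes in these shares was not tested.

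**Figure D4:**
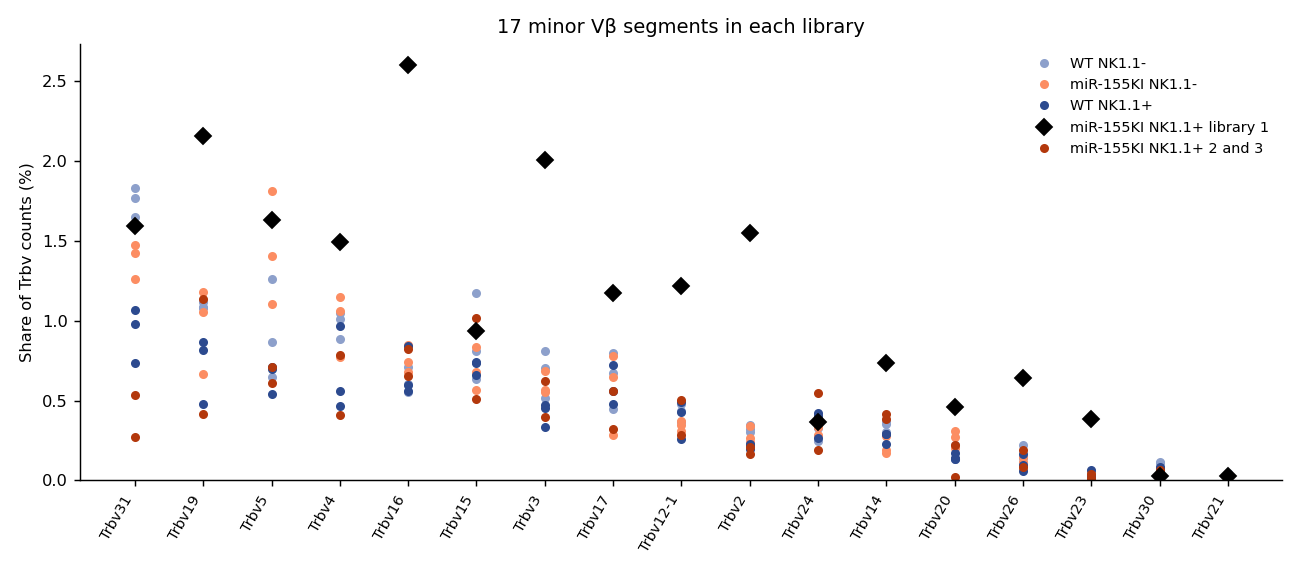
Share of Trbv counts in percent for 17 minor Vβ segments, ordered by their mean, in each of the 12 libraries; black diamonds are miR-155KI NK1.1+ library 1 and colored points the other libraries by group. The diamond lies above every other library for most segments, as for Trbv16 at 2.60% against at most 0.848%.

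Most Vα members exist in copies. Of 111 Trav members, 98 had another copy among the members, in 36 groups, and 15 pairs had a transcript of identical sequence. A read from identical copies cannot be assigned to one of them by its sequence. The members called by genotype in NK1.1- cells and, besides the invariant chain, by pool in miR-155KI cells were pairs of copies identical over their aligned bases. Their last 60 annotated bases are shown, with capitals as above, at chr14:53391083-53391142 (Trav7-2), chr14:52684413-52684472 (Trav7d-2), chr14:52930223-52930282 (Trav12d-3) and chr14:53241185-53241244 (Trav12n-3).
Trav7-2: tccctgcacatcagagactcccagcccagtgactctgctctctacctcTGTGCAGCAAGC
Trav7d-2: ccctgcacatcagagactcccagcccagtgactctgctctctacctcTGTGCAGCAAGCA
Trav12d-3: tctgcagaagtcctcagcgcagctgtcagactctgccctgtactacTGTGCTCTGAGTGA
Trav12n-3: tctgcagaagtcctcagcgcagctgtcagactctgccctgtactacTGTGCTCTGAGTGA
Trav7-2 and Trav7d-2 were identical over 336 aligned bases, their annotated ends differing by where the entry stops, and Trav12d-3 and Trav12n-3 were identical over 347.

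Trav7-2 had 0 counts in all WT NK1.1- libraries and 43, 21 and 53 counts in miR-155KI NK1.1- libraries, at least 37.7-fold higher against a floor of 3 counts over the group (adjusted p = 0.00167). Trav7d-2 ran the other way, with 28, 40 and 35 counts in WT and 3, 1 and 3 in miR-155KI NK1.1- libraries, a log2 fold change of -3.89 (SE 0.623, adjusted p = 0.0038). In WT NK1.1+ libraries Trav7-2 had 0, 60 and 0 counts and Trav7d-2 had 46, 0 and 54, and in miR-155KI NK1.1+ libraries they had 0, 0 and 53 and 63, 38 and 3. In each library 1 of the pair thus held all or nearly all of the counts. Summed, the pair lay at 2.07 ± 0.193 CPM in WT and 2.34 ± 0.672 CPM in miR-155KI NK1.1- cells. The pair's log2 fold change was 0.16 (adjusted p = 0.876).

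Trav12d-3 and Trav12n-3 gave the same picture between pools. Trav12d-3 had 51, 17 and 83 counts in miR-155KI NK1.1- libraries and 0 in all miR-155KI NK1.1+ libraries, at least 47.0-fold lower in the latter (adjusted p = 0.006). Trav12n-3 had 0 counts in all miR-155KI NK1.1- libraries and 27, 76 and 25 in miR-155KI NK1.1+ libraries, at least 45.7-fold higher (adjusted p = 0.00615). In WT NK1.1- libraries the pair had 0, 54 and 0 counts for Trav12d-3 and 37, 0 and 49 for Trav12n-3. Summed with the third copy, Trav12-3, the log2 fold change between pools was 0.15 in miR-155KI cells (adjusted p = 0.888).

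Over all Trav members, 71 had a count in every library, and 23 were at 0 in at least 1 library and at 20 or more counts in another. When the copies of each Vα gene were summed before the fit, chosen after seeing these pairs, no member was called by genotype in NK1.1- cells (0 of 83, with 4 under an unadjusted p of 0.05) or in NK1.1+ cells (0 of 91, with 1 under 0.05). Of all 13271 genes in NK1.1- cells 256 were higher and 199 lower, with 2451 under an unadjusted p of 0.05. Of all 12954 genes in NK1.1+ cells 3 were higher and 0 lower, with 1538 under 0.05. Between WT pools 4 were higher and 1 lower of 88 (1344 and 1479 of 13521 genes were). Trav6-6, the sum of 3 copies, was added to Trav11, Traj18 and Trac with a log2 fold change of 0.84 (SE 0.222, adjusted p = 0.0193). Between miR-155KI pools the 3 higher were Trav11, Traj18 and Trac, and none was lower of 85 (1027 and 796 of 12906 genes were).

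Trav11 itself has an identical copy in the annotation, Trav11d, identical over 342 bases, and a further copy, Trav11n, that differs at 8 of 343 bases. The table gave Trav11d 0 counts in all libraries. How reads that fit both were assigned is not given, so the Trav11 counts may include reads of Trav11d.

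**Figure D5:**
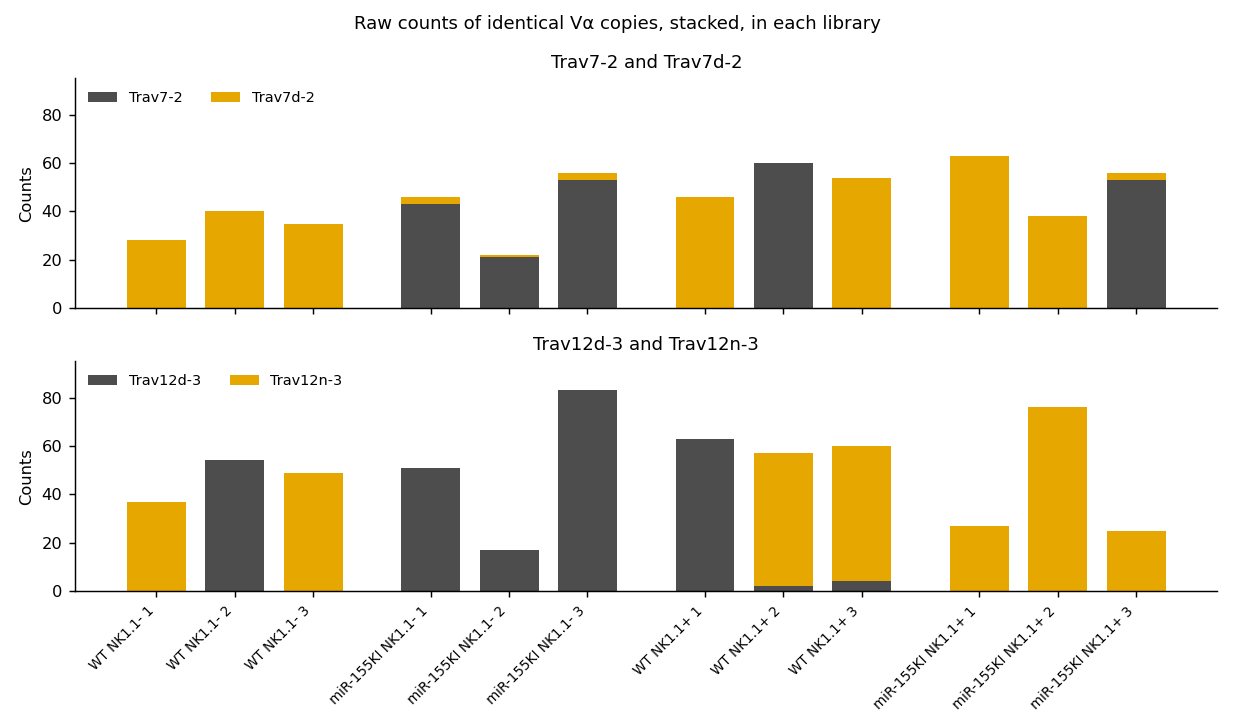
Raw counts per library of Trav7-2 and Trav7d-2 (upper) and of Trav12d-3 and Trav12n-3 (lower), stacked from 0, so that the bar height is the pair's sum. In most libraries 1 color fills the bar. For Trav7 it is the same in all 3 libraries of each NK1.1- group and changes within the NK1.1+ groups, and for Trav12 it is the same within each miR-155KI group and changes within the WT groups.

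Among the Jβ segments, which supply the end of the beta chain's CDR3, the 2 with the highest level per length were Trbj2-7 with a mean of 301 and Trbj2-1 with 275 CPM per kb over the 12 libraries. Trbj2-7 lay between 10.9 and 17.2 CPM and Trbj2-1 between 12.5 and 16.2 CPM in every library. The Trbj1 cluster took 28.3% to 33.9% of the Trbj counts, and no Jβ segment passed the test in any comparison. Trbc1, which is joined by the Trbj1 cluster, took 34.7% to 41.3% of the Trbc counts. The Cβ segments were 87.0% identical in their annotated transcripts.

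Genes of the pathway around the receptor were counted by the same tests. Of 32 genes for CD3 chains and proximal TCR signaling, 7 were higher and 4 lower in NK1.1+ than in NK1.1- WT cells (9.89% and 10.9% of all genes were). With the replicate block 11 were higher and 4 lower, while 1999 and 2054 of all 13555 genes were. In miR-155KI cells 6 were higher and 4 lower (7.92% and 6.15% of all genes were), and 9 and 5 without library 1 of the NK1.1+ cells (1299 and 1243 of 13492 genes were). Cd3e, a signaling chain that escorts the receptor to the surface, rose by a log2 fold change of 0.51 in WT cells (adjusted p = 0.0138) and 0.44 in miR-155KI cells (adjusted p = 0.0170), or 0.47 without library 1 (adjusted p = 0.00579). Cd247, which encodes the zeta chain, fell by 0.54 on the log2 scale in WT cells (adjusted p = 0.00694) and by 0.72 in miR-155KI cells (adjusted p = 0.0019), or by 0.75 without library 1 (adjusted p = 0.00226). These 2 genes were chosen after their values were seen. By genotype, 1 of the 32 was called in NK1.1- cells, Tespa1, a scaffold of TCR signaling, which stood at 71.8, 54.3 and 42.3 CPM in WT and at 92.6, 101 and 84.8 CPM in miR-155KI libraries (log2 fold change 0.71, adjusted p = 0.0435). The call for Tespa1 was lost without the robust option (adjusted p = 0.0560), with all 12 libraries in 1 fit (adjusted p = 0.0650), against WT replicate 1 alone (0.37, adjusted p = 0.358) and without any 1 library other than WT NK1.1- library 1 (0.53 to 0.77, adjusted p between 0.0764 and 0.160). In NK1.1+ cells edgeR called 0 of 32 (3 higher and 0 lower of 12991 genes were), with 4 at an unadjusted p under 0.05 (1539 of all genes were). DESeq2 called 1, which was higher (166 higher and 150 lower of 14133 genes were).

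Of 19 genes for V(D)J recombination and its regulators, 17 were tested between WT pools, and 1 was higher and 4 were lower in NK1.1+ than in NK1.1- cells (9.89% and 10.9% of all genes were). The higher one was Tcf12, which encodes an E protein (log2 fold change 0.52, adjusted p = 0.0432). That call was lost with no filter, in limma with either pseudocount and without any 1 library other than WT NK1.1+ library 1. The lower ones included Myb (-1.43, adjusted p = 0.000437), Hmgb1, a cofactor of the recombinase (-0.51, adjusted p = 0.0290), and Xrcc6 (-0.48, adjusted p = 0.0430). Xrcc6 encodes a subunit of the Ku end-joining complex. With a library left out, 2 to 5 genes of the list were called in all (852 to 1486 of all genes were higher and 980 to 1778 lower). Between the miR-155KI pools edgeR called 0 of 17 (7.92% and 6.15% of all genes were), with 2 at an unadjusted p under 0.05 (3543 of 12942 genes were). DESeq2 called 1 higher and 1 lower of 19 (1461 and 1166 of 14218 genes were). Without library 1 of the NK1.1+ cells edgeR called 0 higher and 2 lower of 17 (1299 and 1243 of 13492 genes were). By genotype in NK1.1+ cells edgeR called 0 of 18 (3 higher and 0 lower of 12991 genes were), with 1 at an unadjusted p under 0.05 (1539 genes were). DESeq2 called 0 of 19 (166 and 150 of 14133 genes were), with 6 at an unadjusted p under 0.05 (2179 genes were).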

How the data were processed

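RNA of sorted thymic iNKT cells was measured in 12 libraries, grouped by their labels. The authors deposited raw counts per gene (reads demultiplexed with bcl2fastq 2.17.1.14, build GRCm38 per the labels) and a signal table in which each library's counts are scaled by 1 factor to CPM. The aligner, the counting program and its treatment of reads that fit several copies are not given in the sources used here. A SMART-Seq kit is named in the labels, and a TruSeq kit in the methods of the paper.

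Counts of all genes were tested with edgeR 4.0.16 in R 4.3.3 (TMM, filterByExpr, robust quasi-likelihood test, Benjamini-Hochberg adjustment over all genes, threshold 0.05), each pair of groups alone and the interaction over all 12 libraries. CPM in the text are TMM-scaled counts. Shares of a segment class were compared by exact two-sided permutation over libraries. Their Wilson intervals and the floor of 3 counts cover counting error only. Segments were aligned with Biopython 1.88, and shares were computed with pandas 2.3.3 and SciPy 1.17.1 (Python 3.11.15). The test was checked on simulated counts.

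The members and gene lists were chosen with earlier results of these data known. The text names the constant segments, the segments known for iNKT cells, the 5 next highest members of each class and each member called; others, such as the minor Vβ segments of 1 library, were chosen after their values were seen.

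Libraries with the same replicate number deviated together from their group means in the 2 WT pools (r = 0.374, 0.267 and 0.161). The numbers come from the titles, and the mice behind each library are not named. The blocked value stands beside the WT results it changes, and for the other groups it is given in the closing section. The alternatives were DESeq2 1.42.0, RLE scaling, no filter, at least 10 counts in every library, no robust option, limma 3.58.1 on log2(CPM + 1) and log2(CPM + 0.1), a replicate block, 1 fit of all libraries, segments left out of the scaling, each library left out, and for shares a minimum of 100 counts or counts per length. WT replicate 1 as the only control, summed copies and the Trac share were added after seeing the data. The values of 1 gene of the V(D)J recombination list are not reported here.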

Additional observations from a re-analysis of the deposited data

Results flagged for a closer look

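Trav6d-6, a Vα segment with an identical copy (Trav6-6), stood apart by genotype in opposite directions in the 2 pools. It stood at 2.65, 2.63 and 2.96 CPM in WT NK1.1- libraries and at 3.14, 3.61 and 4.01 CPM in miR-155KI NK1.1- libraries, where every miR-155KI library was higher. In NK1.1+ cells it stood at 5.58, 4.90 and 4.15 CPM in WT and at 3.71, 2.98 and 3.91 CPM in miR-155KI libraries, where every miR-155KI library was lower. The difference between the 2 genotype effects was -0.85 on the log2 scale (SE 0.555, edgeR adjusted p = 0.763) and did not pass the test. With the copies summed it was -0.74 (SE 0.372, adjusted p = 0.641).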

How the results depend on the processing

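Changes of the invariant segments between pools kept their direction under each alternative run, while in limma with either pseudocount Trac and Traj18 missed the threshold between miR-155KI pools (adjusted p between 0.0759 and 0.0939). The counts of members called moved with the filter and with the handling of copies. Between genotypes in NK1.1- cells the 2 members called became 0 with at least 10 counts in every library (268 genes were higher and 224 lower of 11627). They also became 0 with all 12 libraries in 1 fit (69 and 70 of 14401) and with copies summed (256 and 199 of 13271). They ranged from 2 to 4 when 1 library was left out (4 without WT NK1.1- library 2, with 105 and 103 of 13673 genes). In NK1.1+ cells the 0 called became 1 with DESeq2 (166 and 150 of 14133 genes) and 1 with no filter (144 and 138 of 27581), and stayed 0 to 0 with a library left out. Between WT pools the 4 called became 7 with no filter (1402 and 1532 of 28561 genes) and 7 with at least 10 counts (1312 and 1488 of 11545). With a library left out they were 3 to 8 (8 without WT NK1.1+ library 1, with 1486 and 1778 of 14225 genes). Between miR-155KI pools the 5 called became 8 with no filter (1229 and 1005 of 25820 genes) and 3 with at least 10 counts (986 and 784 of 10898). They became 3 in limma with either pseudocount (774 and 1138, or 754 and 1109, of 12942) and 3 with copies summed (1027 and 796 of 12906). With a library left out they were 2 to 6. They were 2 without NK1.1- library 3 (478 and 310 of 13478 genes), and 3 without NK1.1- library 1 (467 and 324 of 13381) or 2 (531 and 392 of 13628). For the interaction, the 0 called became 3 with no filter (127 and 35 of 29259 genes) and stayed 0 to 0 with a library left out. Fewer genes or copies entered the stricter fits, and the cause was otherwise not tested.

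For libraries of the same replicate number in the other groups, r was 0.134, 0.092 and 0.070 between miR-155KI pools. Between genotypes r was 0.095, 0.204 and 0.094 in NK1.1- cells and -0.052, 0.028 and 0.017 in NK1.1+ cells. These values do not settle whether such libraries are paired. With the block, 4 members were higher and 2 lower between miR-155KI pools (983 and 855 of 12942 genes were), with Trbv29 at an adjusted p of 0.0408. Between genotypes 1 was higher and 1 lower in NK1.1- cells (365 and 372 of 13304 genes were). In NK1.1+ cells 0 were called (4 and 3 of 12991 genes were), and 0 for the interaction (1 and 2 of 14401).

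Of 32 genes for CD3 chains and TCR signaling, 1 was higher and 0 lower in NK1.1- cells by genotype (257 and 200 of 13304 genes were). DESeq2 called 5 higher and 1 lower (505 and 455 of 12634 genes), and no filter gave 6 and 1 (565 and 483 of 27742). With at least 10 counts 2 and 0 were called (268 and 224 of 11627), and 0 without the robust option (217 and 189 of 13304). In limma with either pseudocount 2 and 0 were called (291 and 165, or 283 and 159, of 13304). The replicate block gave 3 and 1 (365 and 372 of 13304), and 1 fit of all libraries gave 0 (69 and 70 of 14401). With a library left out, 0 to 5 were called (5 without WT NK1.1- library 1, with 369 and 548 of 13809 genes, and 0 without any of the others). In NK1.1+ cells the 0 became 1 with DESeq2 (166 higher and 150 lower of 14133 genes were) and 1 with no filter (144 and 138 of 27581). Of the genes for V(D)J recombination, the 5 called between WT pools became 3 with no filter (1402 higher and 1532 lower of 28561 genes were) and 2 to 5 with a library left out. The 0 between miR-155KI pools became 2 with DESeq2 (1461 and 1166 of 14218 genes), 2 with no filter (1229 and 1005 of 25820) and 1 with the block (983 and 855 of 12942). It became 1 in limma with either pseudocount (774 and 1138, or 754 and 1109, of 12942) and 0 to 2 with a library left out.

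With a library left out, the genotype difference in NK1.1+ cells ran from -5.53 to 1.12 points for the Trav11 share, from -1.10 to 5.79 for the other Trbv segments and from -3.003 to 1.89 for the Trac share of constant segments, and the difference between miR-155KI pools from -0.114 to 3.48 for the Traj18 share and from -1.81 to 5.08 for the other Trbv segments. Of Trbv29 in NK1.1+ cells by genotype, the log2 fold change turned to -0.11 with WT replicate 1 as the only control, against a lone library. Names ending in -ps could not be added, as the table holds none. Segments with few counts are limited by depth.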
